A study of Homo sapiens with 17 samples.

Results

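Middle-sized gains of H3K27me3 in replicative senescence are described here. They are the H3K27me3 mesas of 50 kb to under 500 kb on the 22 autosomes, where a mesa is, in the study's usage, a wide region that gained a mark as cells became senescent. The members were chosen by their length in the deposited list alone, and 469 of its 1440 mesas met that rule, beside 697 shorter and 237 longer autosomal mesas. The length is itself a readout of the H3K27me3 experiment, so lengths, counts and gaps between mesas are given as descriptions. LADs (lamina-associated domains) and H3K4me3 mesas come from other antibodies and were not used to choose the members.

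The cells were IMR90, a line of human lung fibroblasts, and 17 ChIP-seq libraries fell into 11 groups. Replicative senescence was read from proliferating cells at population doubling 24 and senescent cells at doubling 87 that had been held for 2 weeks after growth stopped. H3K27me3 had 4 proliferating and 2 senescent libraries, H3K4me3 1 of each, histone H3 2 of each, and lamin B1 1 library from proliferating cells. The Ras experiment used cells at doubling 15, with 1 H3K4me3 and 1 H3 library from control cells and the same from Ras-induced cells, in which a retroviral ER:Ras fusion was switched on with 100 nM 4-hydroxytamoxifen. The labels do not say whether the control cells carried the construct. All groups share the 1 cell line, and no H3K27me3 library came from the Ras experiment.

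H3K27me3 is the trimethyl mark that Polycomb repressive complex 2 writes on lysine 27 of histone H3, and it is known for holding developmental genes silent over broad domains. LADs are long, gene-poor stretches that touch the filament mesh under the nuclear envelope, and lamin B1, a filament protein of that mesh, is known to be lost when fibroblasts become senescent. H3K4me3, trimethylation of lysine 4, is written by COMPASS-type complexes, usually as narrow peaks at active promoters, so very broad domains of it are unusual. A canyon is the opposite of a mesa, a stretch that lost the mark.

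The lists give the position of each region and no value per library, and the depth of the libraries is unknown here. No difference below could therefore be set against the spread between cultures, and no test was made. An SD over autosomes shows how a value varied along the genome. It is not an error between replicates. ChIP on bulk cells cannot tell 2 marks on the same nucleosomes from marks in different cells, and a region under both lists is only a region that appears in both.

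The middle-sized mesas made up 33.4% of autosomal H3K27me3 mesas and 18.2% of their base pairs, 87.2 Mb in all. Short mesas were more frequent (49.7%) but held 2.27% of base pairs, while long mesas held 79.6%. Within the class the lengths leaned to the lower bound, with a median of 149 kb and quartiles at 84.5 and 268 kb. Of the members, 157 were under 100 kb and 38 were 400 kb or more.

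The bounds cut through a continuous run of lengths. The shortest members were 50.6 kb on chromosome 9 (92481401 to 92531999), 51.1 kb on chromosome 10 (1351901 to 1402999) and 51.1 kb on chromosome 17 (30205601 to 30256699), and the nearest mesas left out below them measured 49.8, 49.7 and 49.5 kb. The longest members were 499 kb on chromosome 14 (21055301 to 21554799), 495 kb on chromosome 1 (41729301 to 42224599) and 488 kb on chromosome 5 (154500001 to 154988199). The nearest mesas left out above them measured 503, 504 and 505 kb. Coordinates are of build hg18, counted from 1.

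Most middle-sized mesas were not isolated. The median distance from a member to the nearest other H3K27me3 mesa was 4.20 kb, measured from an end to the next start, with quartiles at 0.501 and 570 kb. Another mesa lay within 10 kb of 266 members (56.7%), against 48.0% of all 1403 autosomal mesas, a set that includes the members. For 186 members (39.7%) it lay within 1 kb, and the smallest distance was 101 bp, about 1 step of the 100 bp grid on which the list is laid. The count within 1 kb has no share over all autosomal mesas beside it.

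The distances fell into 2 groups with few between. Only 32 members had their nearest mesa at over 10 and up to 100 kb, while 122 (26.0%) had none within 500 kb and 81 had none within 1 Mb. The loneliest member was 11329 kb from the next mesa. By comparison, the median distance was 103 kb for short mesas and 9.80 kb for long ones. A neighbour within 10 kb was found for 41.5% and 50.2% of them. Their quartiles were also far apart, at 0.801 and 870 kb for short and 0.701 and 599 kb for long mesas. A neighbour within 500 kb was found for 65.4% of short and 71.7% of long mesas, against 74.0% of members. Mesas without a near neighbour were therefore not particular to the members.

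**Figure D1:**
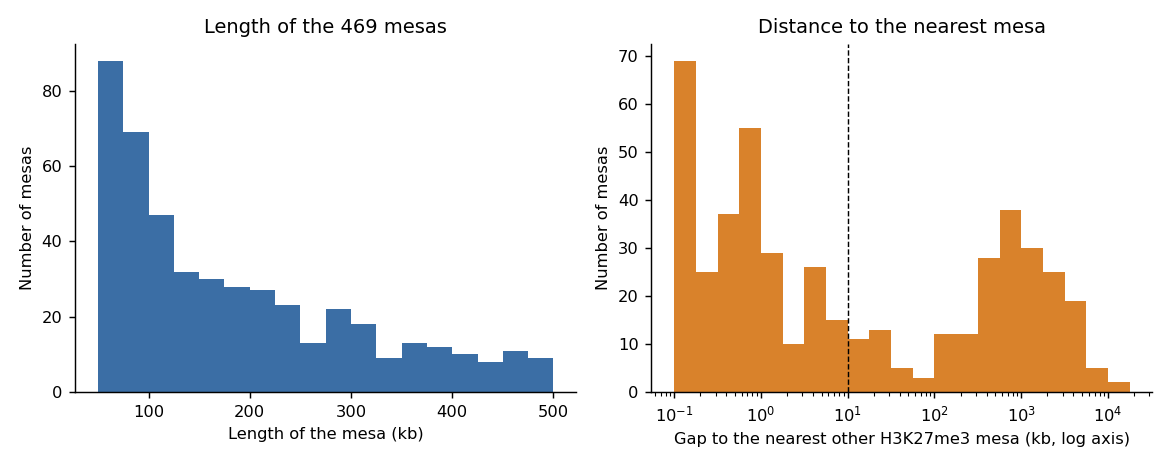
Left, lengths in kb of the 469 middle-sized mesas (bars count mesas in steps of 25 kb). Right, distance in kb from each of them to the nearest other H3K27me3 mesa on a log axis, with a dashed line at 10 kb; 266 mesas lie to its left and a separate hump lies around 1000 kb.

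Close neighbours were more often middle-sized and less often short than the mesas of the list, while the share of long ones was similar. Of 359 sides of members with a mesa within 10 kb, 156 (43.5%) faced another middle-sized mesa, 143 (39.8%) a short one and 60 (16.7%) a long one. A gap with members on both sides counts here once for each of them, so sides are not independent. Over all 924 sides with any neighbour the shares were 37.2%, 45.5% and 17.3%, and in the list itself they were 33.4%, 49.7% and 16.9%.

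Joining all mesas across gaps of up to 10 kb showed what the members were parts of. In all, 203 members (43.3%) joined to nothing and are called single below. Another 120 (25.6%) became parts of 78 domains that stayed under 500 kb, and counted once for each member the median domain was 293 kb. The remaining 146 (31.1%) became parts of 76 domains of 500 kb or more, with a median, counted in the same way, of 1203 kb and the longest at 7261 kb. Of those 76 domains, 59 held a long mesa (104 members) and 17 were built wholly from pieces under 500 kb (42 members). Members of the same domain are not independent of each other.

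Members less than 500 kb apart were also chained into runs. Of the members, 229 (48.8%) stood in 91 runs of 2 or more, and 240 stood alone. Most runs were pairs (64), 16 held 3 members, 7 held 4, 1 held 5, 2 held 6 and 1 held 8.

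The run with most members held 8 over 2.00 Mb of chromosome 7, at 154006501 to 156005199. They measured 250, 204, 65.9, 91.1, 169, 231, 52.5 and 370 kb in order, and 4 short mesas lay among them. All base pairs of the members lay in LADs, 3 of them in turn. The first 5 members had 0% under either H3K4me3 list and the last 3 had 100% under both, so H3K4me3 cover went from none to full along the run.

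The next by number of members was on chromosome 8 at 142648801 to 143711099. Its 6 members measured 158, 240, 80.4, 86.3, 411 and 83.8 kb and filled 99.8% of 1.06 Mb, and they belonged to a joined domain of 6916 kb. The whole run lay in 1 LAD of 2160 kb, and 95.3% of its members' base pairs were under replicative and 100% under Ras-induced H3K4me3 mesas.

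Another run of 6 was again on chromosome 7, at 156954301 to 158009299. Its 6 members of 73.0 to 281 kb filled 94.2% of 1.05 Mb, and with 2 short mesas the cover was 97.8%. Within its LAD of 1300 kb, 99.6% of the members' base pairs were under replicative and 100% under Ras-induced H3K4me3 mesas. The only member below full cover by the replicative list, at 95.2%, was the first one.

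Cover differed between runs. The run of 5 members on chromosome 2 at 451501 to 1924499 spanned 1.47 Mb, more than either run of 6, with 85.2% of the members' base pairs in LADs, 0% under replicative and 95.8% under Ras-induced H3K4me3 mesas. It is named after its values were seen.

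**Figure D2:**
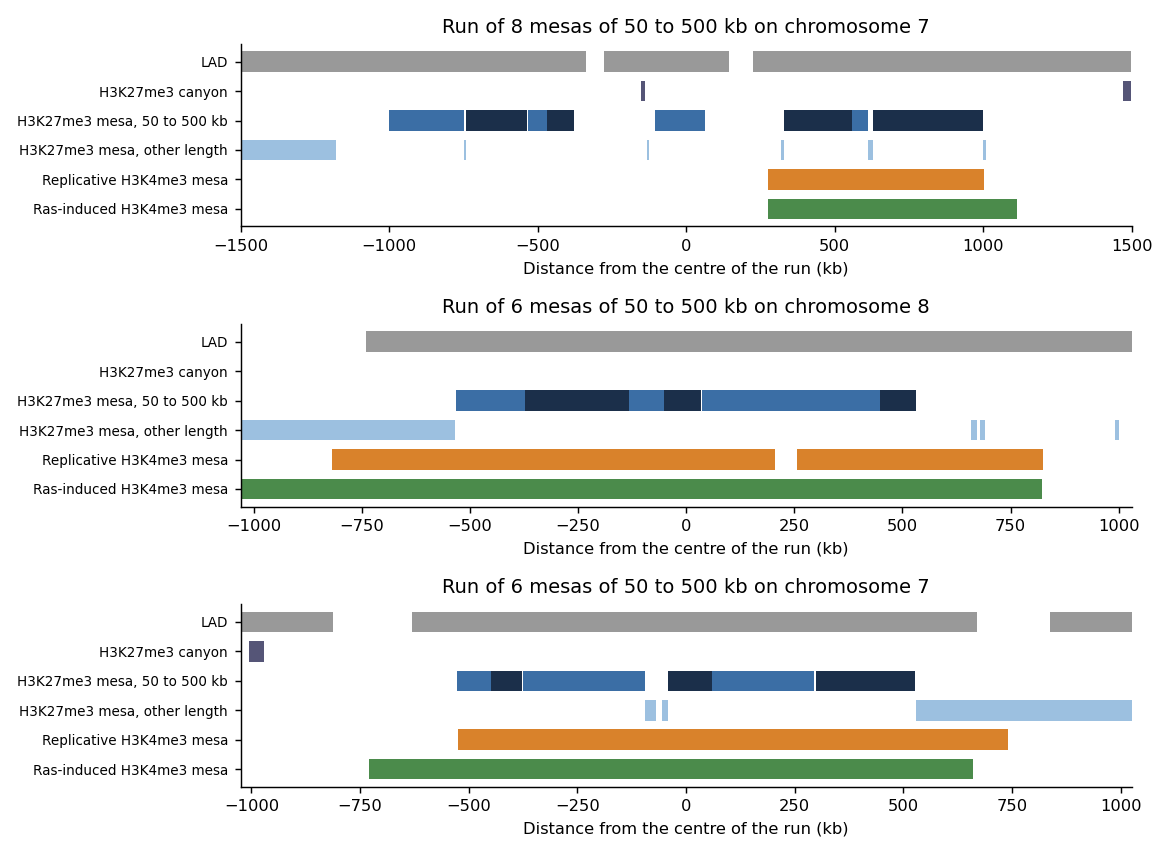
The 3 runs with most middle-sized H3K27me3 mesas (8, 6 and 6), drawn by distance in kb from the centre of each run with 500 kb on either side. Each row is 1 list, and neighbouring middle-sized mesas have alternating shades because gaps under 1 kb do not show at this scale; in the first run only the last 3 of 8 mesas lie under H3K4me3 mesas, and the other 2 runs lie almost wholly under them.

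LADs held most of the middle-sized mesas. Of the members' base pairs, 89.7% lay in LADs, which cover 61.2% of the autosome span, and the mean over 22 autosomes was 88.3 ± 9.24% (SD). In all, 396 members (84.4%; 95% Wilson interval over regions 80.9 to 87.4%) lay wholly inside 1 LAD, against 75.6% of all autosomal mesas. A further 32 (6.82%) crossed a LAD edge and 41 (8.74%) touched no LAD. The lowest share of base pairs in LADs was 61.5% on chromosome 21, which had 8 members, and the highest was 100% on chromosomes 5 and 7.

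The LADs concerned were few and long. Counting for each member the LAD that shared most of it, 288 of 2001 autosomal LADs (14.4%) were involved, with a median length of 1105 kb against 430 kb for all. Per member the median LAD length was 1300 kb, with quartiles at 832 and 2220 kb. LADs of at least 1 Mb held 284 of the 428 members with a LAD (66.4%). These LADs are 26.2% of autosomal LADs by number but 68.5% by base pairs, so the members' share in them was close to their share of LAD base pairs.

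Members took up a small part of their LADs. The median LAD with a member had 19.6% of its length under members and 37.8% under H3K27me3 mesas of any length. Members covered at least 50% of 27 of these LADs, and mesas of any length 104. In 106 LADs (36.8%) the member was the only H3K27me3 mesa. A canyon, a loss of the same mark, touched 143 of these LADs (49.7%), against 65.3% of all autosomal LADs. Among LADs of at least 1 Mb the shares were 56.4% of 165 with a member and 59.0% of all 524.

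Most LADs held 1 member, 203 of 288, while 53 held 2, 16 held 3 and 16 held 4 or more. The LADs with 2 or more, 85 in all, held 225 members. Each of the 3 richest LADs held 6. One was on chromosome 17 at 27830001 to 30350000 (2520 kb), of which 37.9% was under members, 70.7% under all mesas and 49.7% under replicative H3K4me3 mesas, with 14 mesas in all. The others were those around the runs of 6 members, on chromosome 8 at 142440001 to 144600000 and chromosome 7 at 156850001 to 158150000, with 49.1% and 76.4% under members.

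Members wholly inside a LAD lay at all depths. For the 396 members wholly inside 1 LAD, the median midpoint was 27.9% of the LAD length from the nearer edge, where 0% is the edge and 50% the centre. By midpoint, 53 (13.4%) fell in the outermost 10% and 91 in the innermost. A mesa needs room, however, and cannot have its midpoint at an edge. Measured instead as the distance from the mesa's own nearer end to the LAD edge, divided by the room that the mesa left free, the numbers were 78, 104, 79, 67 and 68 from edge to centre, with a median of 22.1%, so the lean towards the centre was not seen on that scale. The nearer end of the mesa was a median of 219 kb from the LAD edge (quartiles 130 and 375 kb), and 16 members (4.04%) came within 50 kb. Members across an edge are left out of that count, and it has no expected share beside it. LAD edges lie on a grid of 10000 bp.

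**Figure D3:**
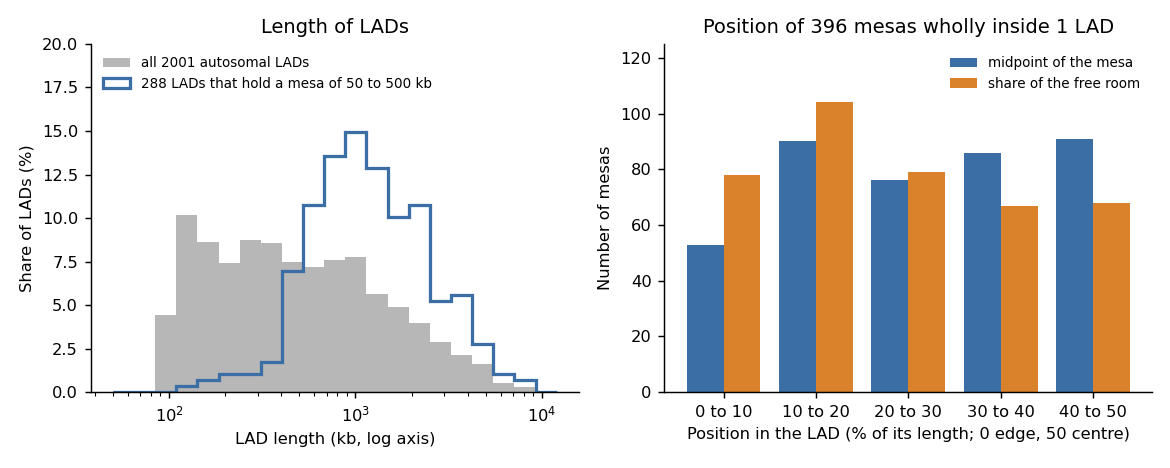
Left, share of LADs (%) by length in kb on a log axis, for all 2001 autosomal LADs (grey) and for the 288 that hold a middle-sized mesa (blue line), whose median is 1105 kb against 430 kb. Right, number of the 396 mesas wholly inside 1 LAD by position from edge (0%) to centre (50%), by midpoint (blue) and by share of the free room (orange), with 53 and 78 in the outermost bin.

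Members outside or across LAD edges differed from those inside in several measures. The 41 outside LADs had a median length of 95.1 kb, against 151 kb inside, and their nearest mesa was a median of 722 kb away, against 1.70 kb inside. Of these 41, 34 were single and none belonged to a joined domain of 500 kb or more. A median of 91.1 kb separated them from the nearest LAD, 14 were within 50 kb of one, and the farthest was 842 kb away. The longest member outside LADs was on chromosome 11 at 63438201 to 63784099 (346 kb), 166 kb from a LAD, with 3.50% under replicative and 70.9% under Ras-induced H3K4me3 mesas. After it came 324 kb on chromosome 12 at 77924301 to 78248199 and 312 kb on chromosome 8 at 59858301 to 60169899, both with 0% under either list.

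The 32 members across a LAD edge were longer, with a median of 309 kb, and 8 of them reached into 2 LADs. Their median share in LADs was 55.4%. The member with the least was the second longest of all, 495 kb on chromosome 1 at 41729301 to 42224599. It had 4.97% of its length in a LAD of 210 kb, 0% under replicative and 100% under Ras-induced H3K4me3 mesas.

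Canyons, the losses of the same mark, were often the next region along the chromosome but seldom close. A canyon was the first region met on at least 1 side of 289 members (61.6%), and 145 members (30.9%) were nearer to a canyon than to another mesa. The nearest canyon was a median of 391 kb away (quartiles 180 and 913 kb), and 25 members (5.33%) had one within 50 kb. For short and long mesas the median was 370 and 350 kb, so this distance was not particular to the members. The counts of canyon neighbours have no share over all autosomal mesas beside them and describe the members only. No member shared a base pair with a canyon, which is the opposite change of the same mark. By the first region met on each side, 174 members (37.1%) stood between mesas, 176 (37.5%) between a mesa and a canyon and 111 (23.7%) between canyons, and 8 had no region of either kind on 1 side. Those between canyons had 77.0% of base pairs in LADs, 39.2% under replicative and 36.5% under Ras-induced H3K4me3 mesas. Those between mesas had 95.3%, 55.6% and 66.2%.

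Gain of H3K4me3 in replicative senescence covered 49.2% of the members' base pairs, and 45.7 ± 15.2% as the mean over 22 autosomes (SD). Replicative H3K4me3 mesas cover 16.2% of the autosome span and 23.6% of autosomal LAD base pairs. Cover was close to all or none: 220 members (46.9%) lay wholly under such a mesa, 216 (46.1%) had no shared base pair and 33 (7.04%) were partly covered. Of short mesas, 32.9% lay wholly under one, 66.6% had no shared base pair and 0.574% were partly covered. Of long mesas the shares were 12.2%, 24.5% and 63.3%. At least 50% was covered in 234 members (49.9%; 45.4 to 54.4%), against 39.8% of all autosomal mesas. No autosomal replicative H3K4me3 mesa was shorter than 502 kb, so each was longer than any member. A member could be partly covered only where it crossed an end of such a mesa. Cover close to all or none was therefore not particular to the members.

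The H3K4me3 gain of Ras-induced senescence covered the members to a similar extent. Of the members' base pairs, 53.4% lay under Ras-induced H3K4me3 mesas, with a mean of 54.2 ± 13.3% over 22 autosomes (SD), against 24.2% of the span and 30.8% of autosomal LAD base pairs. In all, 237 members (50.5%) were wholly covered, 199 (42.4%) not at all and 33 (7.04%) in part. For short mesas these shares were 42.0%, 57.0% and 1.00%, and for long mesas 20.7%, 13.9% and 65.4%. At least 50% was covered in 256 (54.6%; 50.1 to 59.0%), against 49.6% of all autosomal mesas. The H3K27me3 list was made in replicative senescence, so gain of H3K27me3 after Ras was not measured here.

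The H3K4me3 lists were then combined, again by cover of at least 50%. Under both lists were 172 members (36.7%; 32.4 to 41.1%), against 29.1% of all autosomal mesas. The replicative list only covered 62 (13.2%; 10.5 to 16.6%), against 10.8%, and the Ras-induced list only 84 (17.9%; 14.7 to 21.6%), against 20.5%. Under neither were 151 (32.2%; 28.1 to 36.6%), against 39.6%. Members under both were 73.5% of the replicative-covered and 67.2% of the Ras-covered. Of all autosomal mesas, 408 were under both, out of 559 replicative-covered and 696 Ras-covered ones. For the replicative-covered this is close to the share in members. Neither list touched 131 members (27.9%), and 158 (33.7%) were wholly under both. The counts of untouched and of wholly covered members have no share over all autosomal mesas beside them and describe the members only.

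The regions of the 4 sets were of similar length. Their median lengths were 148, 136, 136 and 158 kb in the order above. Members under both lists and under the replicative list only had 97.0% and 96.2% of base pairs in LADs, while those under the Ras-induced list only and under neither had 83.3% and 82.7%. The median distance to the nearest mesa was 0.601 kb for members under both lists, 20.3 kb for replicative only, 3.75 kb for Ras-induced only and 162 kb for neither. Of the 41 members outside LADs, 25 were under neither list and 1 under the replicative list only.

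Long examples of each set show the range. Under both lists, the longest were 485 kb on chromosome 15 at 90448501 to 90933999 and 481 kb on chromosome 13 at 28318801 to 28800099, each with 100% under both. Under the replicative list only, 482 kb on chromosome 20 at 57348701 to 57830499 had 100% and 37.8%, and 481 kb on chromosome 13 at 111572501 to 112053999 had 93.5% and 0%. Under the Ras-induced list only, 488 kb on chromosome 7 at 103724401 to 104212299 had 0% and 100%. The longest member of all, 499 kb on chromosome 14 at 21055301 to 21554799, lay wholly in a LAD of 1030 kb with 0% under either H3K4me3 list and no other H3K27me3 mesa within 709 kb.

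Replicative H3K4me3 mesas that wholly contained a member numbered 151 of 587 on autosomes, with a median length of 758 kb, and 46 of them contained 2 or more members, at most 5. The corresponding Ras-induced mesas numbered 159 of 755, with a median of 950 kb, and 50 contained 2 or more, at most 6. For wholly covered members the nearer end was a median of 167 kb from the edge of the replicative and 214 kb from the edge of the Ras-induced H3K4me3 mesa. Members across such an edge are left out of these distances, which were not set against the room that a member leaves free. The 216 members without replicative cover were a median of 1244 kb from the nearest replicative H3K4me3 mesa, and 53 of them (24.5%) were within 500 kb of one. The 199 without Ras-induced cover were a median of 1008 kb from the nearest Ras-induced mesa, with 63 (31.7%) within 500 kb.

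Cover by H3K4me3 mesas differed with what a member was joined to. Of base pairs of the 203 single members, 37.4% were under replicative and 37.6% under Ras-induced H3K4me3 mesas. In the 120 members of joined domains under 500 kb the values were 49.7% and 49.5%, and in the 146 members of joined domains of 500 kb or more they were 64.3% and 76.5%. LAD cover was 82.1%, 95.4% and 96.2%. This split of the members was made after these data had been seen, and it uses the H3K27me3 list alone.

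Within autosomes the largest joined domains and the single members were set side by side first. On the 20 autosomes with both kinds, members of joined domains of 500 kb or more had more base pairs under Ras-induced mesas than single members on 18, by 43.5 ± 37.0 points (SD). For replicative mesas this was so on 15, by 27.4 ± 40.6 points, which is less than 1 SD of the spread among autosomes. For LADs it was so on 16, with 2 equal, by 17.4 ± 15.2 points. The steps between were less regular. Members of joined domains under 500 kb exceeded single members in Ras-induced cover on 11 of 20 autosomes and were lower on 9, and in replicative cover they were higher on 14 and lower on 6. Between the 2 kinds of joined domain, on 19 autosomes, the larger domains had more LAD cover on 4, less on 5 and equal on 10. Their Ras-induced cover was higher on 13, lower on 5 and equal on 1, by 26.3 ± 40.8 points (SD). Replicative cover was higher on 12 and lower on 7, by 17.7 ± 58.6 points.

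LAD length moved with this split, since the median LAD was 1030 kb for single members, 1290 kb for members of joined domains under 500 kb and 1910 kb for the rest. Among members wholly inside a LAD of at least 1 Mb, the Ras-induced cover was 33.4% in 82 single members, 47.3% in 72 members of the smaller joined domains and 82.8% in 114 of the larger, and the replicative cover 41.5%, 44.3% and 65.3%. Pooled over base pairs, the order was the same in these long LADs, among which LAD length was not held equal. Whether LAD length accounts for the order was not tested.

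**Figure D4:**
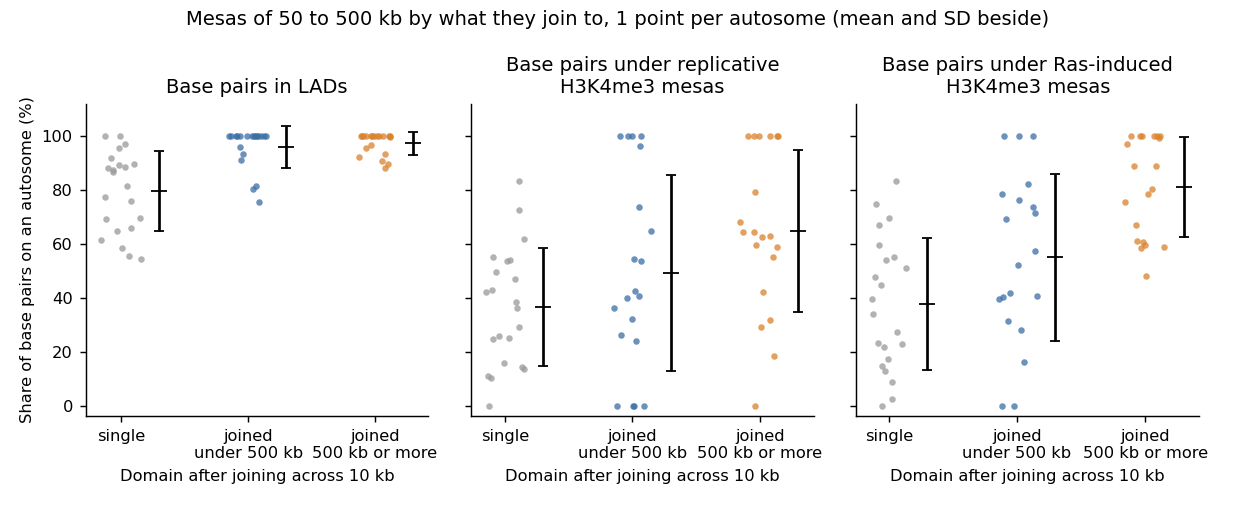
Share of base pairs (%) of middle-sized mesas in LADs (left), under replicative (middle) and under Ras-induced (right) H3K4me3 mesas, for single mesas and for mesas that join across gaps of 10 kb into domains under 500 kb or of 500 kb or more. Each point is 1 autosome, with mean and SD beside; Ras-induced cover averages 37.8%, 54.9% and 81.1%, with wide spread between autosomes.

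Domains that held a member were also sorted by their number of pieces. Domains of 1, 2, 3 and 4 or more pieces (203, 69, 35 and 50 domains, at most 15 pieces) had 39.0 ± 47.7, 50.6 ± 45.7, 61.2 ± 43.0 and 73.5 ± 34.9% of their length under Ras-induced mesas (mean and SD over domains). For replicative mesas the means were 38.3 ± 47.6, 38.8 ± 44.7, 58.1 ± 43.4 and 62.2 ± 37.7%. Over base pairs the Ras-induced shares were 37.6%, 54.9%, 64.6% and 71.5%, while the replicative shares were 37.4%, 32.5%, 59.4% and 48.6% and did not rise steadily with the number of pieces. Domain length rose with the number of pieces, from a median of 164 to 958 kb.

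Cover by the H3K4me3 lists was also read in the gaps between pieces. Every autosomal H3K4me3 mesa was far longer than a gap of up to 10 kb, so such a gap mostly takes the cover of the pieces beside it. The shares for these narrow gaps therefore largely repeat the cover of those pieces and are no separate observation. Beside the members there were 173 gaps of up to 1 kb, and 67.3% of their base pairs lay under replicative and 71.9% under Ras-induced H3K4me3 mesas. For 108 gaps of 1 to 10 kb the values were 47.5% and 63.4%. No gap of either kind touched a canyon, but most had no room for one. Their medians were 0.401 and 2.30 kb, and the shortest autosomal canyon was 7.30 kb. For 124 wider gaps of up to 500 kb the values were 39.6% and 47.4%, and canyons covered 7.20%. Whether the narrow gaps mark sequence without H3K27me3 gain or places where reads could not be mapped was not tested.

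In the 59 joined domains that held both a member and a long mesa, the members and the long mesas were compared directly. The replicative cover was higher in the members of 27 domains, lower in 14 and equal in 18, a difference of 8.94 ± 41.1 points (SD over domains). For the Ras-induced list members were higher in 25, lower in 17 and equal in 17, by 3.96 ± 37.7 points. Both differences were smaller than the spread between domains.

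The middle-sized mesas were set against the short and the long ones. Members had more base pairs in LADs than short mesas on 18 of 22 autosomes, by 11.7 ± 13.2 points (SD), and more under replicative H3K4me3 mesas on 16, by 11.3 ± 18.8 points. Under Ras-induced mesas they were higher on 14, by 4.18 ± 20.2 points. Each of these differences was smaller than 1 SD over autosomes. No LAD was touched by 150 short mesas (21.5%), against 8.74% of members.

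Long mesas had 92.4% of base pairs in LADs against 89.7% in members, and members were lower on 14 of 22 autosomes, with a mean difference of -2.65 points, members minus long, and an SD of 12.4. Over all base pairs, replicative H3K4me3 cover was 49.2% in members and 35.6% in long mesas. Averaged over autosomes that difference of 13.6 points was 4.63 ± 26.9 (SD), with members higher on 15. Ras-induced cover was 53.4% in members and 54.4% in long mesas. Long mesas were wholly inside 1 LAD less often (55.3%) and crossed a LAD edge more often (44.7%), and length was not held equal between the classes.

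**Figure D5:**
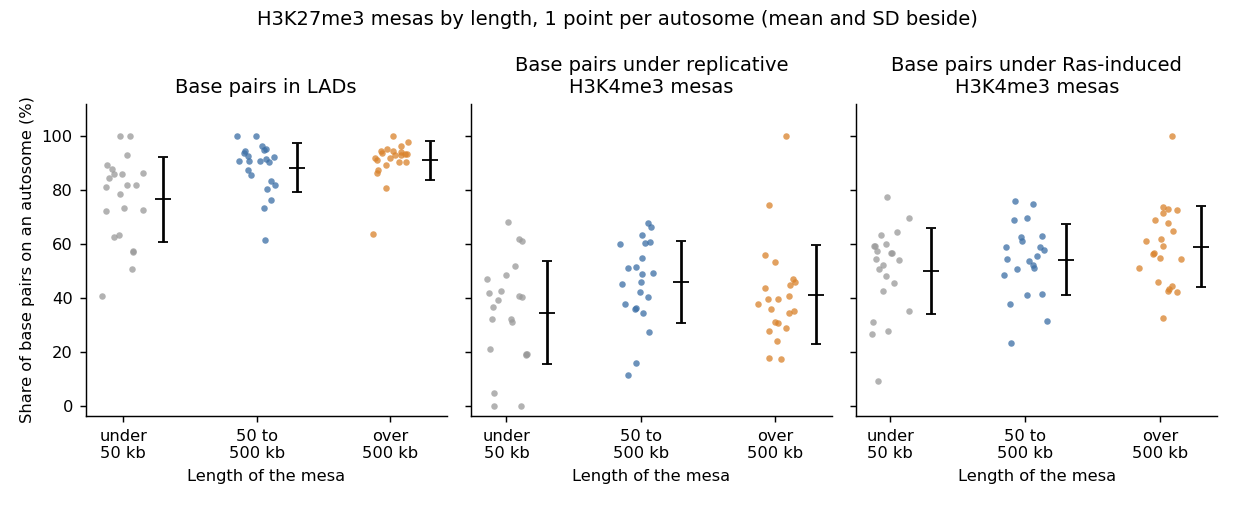
Share of base pairs (%) in LADs (left), under replicative (middle) and under Ras-induced (right) H3K4me3 mesas for autosomal H3K27me3 mesas under 50 kb, of 50 to 500 kb and over 500 kb. Each point is 1 autosome, with mean and SD over 22 autosomes beside; the replicative means are 34.4%, 45.7% and 41.1% and the points of the 3 classes overlap widely.

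Within the members, H3K4me3 cover by length was as follows. At least 50% was under the replicative list in 47.8% of the 157 members under 100 kb, 53.3% of the 137 of 100 to 200 kb, 52.9% of the 85 of 200 to 300 kb, 50.0% of the 52 of 300 to 400 kb and 39.5% of the 38 above. For the Ras-induced list the shares were 56.1%, 53.3%, 60.0%, 51.9% and 44.7%.

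The members were spread unevenly over the autosomes. Chromosome 22 had the most for its span, 0.368 per Mb (13 members), and chromosome 19 the fewest, 0.0784 per Mb (5 members), against 0.168 per Mb over all autosomes. Chromosome 22 also held 15 short and 7 long mesas, and chromosome 19 held 16 short and 8 long. Densities of mesas of other lengths were not computed, so these extremes were not shown to be particular to the members. By number, chromosomes 1 and 7 led with 46 each. Replicative H3K4me3 cover of the members ran from 11.5% on chromosome 19 and 15.6% on chromosome 21 to 67.6% on chromosome 7. On chromosome 19 Ras-induced cover was 62.6%, the widest gap between the lists on any autosome, on 5 members.

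The ends of the listed spans held many of them. A span stops at the outermost listed region, which need not be the end of the chromosome. On chromosomes 13, 21 and 22, for example, the first LADs with a member started at 17820001, 9620001 and 14340001. The lower ends of such spans may therefore lie far inside the chromosome, and they were not set apart. The outer 5 Mb at each end of the span are 7.89% of it and held 89 members (19.0%), on 20 autosomes, with 53.2% of base pairs under replicative and 66.1% under Ras-induced mesas. Away from these ends of the spans the values were 48.2% and 50.3%. Short and long mesas also lay there more often than the share of span, at 14.9% and 17.7%.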

How the data were processed

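The members, the size classes and the measures were chosen with earlier results of these data known. The authors aligned reads with Bowtie 0.12.5 to build hg18, per the submitters' processing notes; how regions were called, whether H3 was subtracted and whether libraries were pooled is not given in the sources used here. The 5 deposited lists hold other values only, namely the start and end positions of regions; per the file headers the LAD list was merged from lamin B1 data. That mesas are gains and canyons losses follows the study's usage, not a header. Depth is unknown.

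Length is the end minus the start column. Shared base pairs were counted with Python 3.11.15, pandas 2.3.3 and NumPy 2.4.6, with 1 bp as overlap; region counts have 95% Wilson intervals (SciPy 1.17.1) that treat regions as independent, which neighbours are not. An autosome's span is the distance between the outermost region bounds on it over all lists. Printed starts are 1 above the BED column. Interval arithmetic was tested on simulated data. Named regions are, by rule, the longest and shortest members, those beside the length bounds, the longest of each placement and H3K4me3 set, the 3 runs and the 3 LADs with most members, and the autosomes with most and fewest members; a part is printed. Alternatives changed the length bounds, joined mesas or LADs, added chromosome X, left out each autosome, and changed weighting, cover and distance. Genes are not named, because the gene table used here is of another build.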

Additional observations from a re-analysis of the deposited data

How the results depend on the processing

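Joining mesas across 10 kb before the length rule moved more of the results than any other alternative did, because pieces of longer domains leave the class by construction. It left 292 members in place of 469. They held 12.5% of mesa base pairs, with 86.1% of base pairs in LADs, 77.4% wholly inside 1 LAD, 41.5% of base pairs under replicative and 41.9% under Ras-induced H3K4me3 mesas, and 40.4% and 42.1% of members at least 50% covered. The median gap to another mesa became 653 kb, 43.5% had one within 500 kb, the median LAD was 1070 kb and the median position 32.0%. The difference from short mesas in LADs became 16.1 points, and from long mesas 3.75 points for replicative and -14.3 for Ras-induced cover.

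The small difference of -1.0 points from long mesas in Ras-induced cover turned to 2.95 with bounds of 70 to 350 kb, to 3.98 with chromosome X and to 0.297 at most with 1 autosome left out, so its direction was not stable. The 13.6 points in replicative cover fell to 4.63 as a mean over autosomes. Members held 11.8% of mesa base pairs with bounds of 70 to 350 kb and 15.8% with chromosome X. Another mesa lay within 250 kb of 67.6% and within 1 Mb of 82.7%. Of 130 alternative values for 21 results, 107 stayed within the interval, or for counts within 1.5 times, of the value reported, while 20 moved and 3 reversed. For shares, also of base pairs, this was a Wilson interval as if regions or joined domains were independent counts. Differences used a width combined from such intervals, and medians an interval from ranks. The tally includes values with 1 autosome left out and alternatives added after the data were seen, so it is no measure of robustness.

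For members of joined domains of 500 kb or more against single members, all alternatives were added after the data were seen. The differences of 26.9 (replicative), 39.0 (Ras-induced) and 14.1 points (LADs) kept their direction in each.

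No paired analysis was possible because the lists carry no column per sample. Depth is unknown and limits each statement on absence.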

Other observations

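Chromosome X, left out above, held 35 H3K27me3 mesas, of which 10 were of 50 to 500 kb. Of their base pairs, 97.7% lay in LADs, 66.1% under replicative and 81.0% under Ras-induced H3K4me3 mesas.

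Short H3K27me3 mesas showed the same order by what they joined to as the middle-sized ones. In 408 single short mesas 24.2% of base pairs were under replicative and 34.3% under Ras-induced H3K4me3 mesas, and in 133 short mesas of joined domains of 500 kb or more 52.4% and 73.9%. In long mesas the values were 34.4% and 52.1% for 118 single ones and 36.6% and 56.5% for 119 joined ones. The difference between length classes was not tested.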
